A study of Mus musculus with 12 samples.

Results

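Hypertrophic zones of Schmid mice were compared with those of their own wildtype, across all genes of a whole mouse genome array. The 6 arrays of this comparison were chosen by their sample labels from the 12 arrays of the series: 3 from Schmid mice and 3 from wildtype mice of the Schmid background, 1 mouse per array and all 14 days old. Schmid mice were homozygous for a knock-in substitution in the NC1 domain of collagen X, the trimer-forming end of the chain, and the model of metaphyseal chondrodysplasia type Schmid therefore rests on 1 engineered allele. RNA came from the hypertrophic zone microdissected from 1 tibial growth plate per mouse, was amplified linearly, labelled with Cy3 and hybridized in a single colour. The other 6 arrays were from Cog mice and the wildtype of the Cog background, and only the latter (3 arrays) was used here, as a second reference. All 41174 probes that were not controls were compared, and 27670 genes were each read at the probe with the highest mean signal.

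The share of spots well above background was 58.9 to 61.8% on the Schmid arrays and 48.0 to 59.4% on their wildtype arrays. Negative control spots had median signals of 202 to 617 and of 977 to 1199, respectively. The 3 Schmid arrays lay on 1 slide. Wildtype replicates 1 and 2 lay on a second slide, and wildtype replicate 3 lay on a slide that it shared with Cog arrays. No slide held both genotypes, so slide and genotype cannot be told apart in any value below, and no value within a slide could be computed.

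Hypertrophic chondrocytes are the last stage of the growth plate chondrocyte before cartilage is replaced by bone, and collagen X is their main specific product. Misfolded collagen X is retained in the endoplasmic reticulum (ER), where it activates the unfolded protein response, a program that slows translation, raises chaperones and degradation, and through Atf4 and Ddit3 changes amino acid supply and growth signals. The hypertrophic zone borders on the invading vessels, bone marrow and bone-forming cells of the metaphysis, so that a dissected zone can carry RNA of those cells too.

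A probe or gene was called at an adjusted p of 0.05 or less (limma, adjusted over all probes) with at least a 2-fold difference. Of 41174 probes, 2380 (5.78%) were higher and 1930 (4.69%) lower in Schmid. Of 27670 genes, 1606 (5.8%) were higher and 1597 (5.77%) lower, and these 2 shares are the background against which each list below is read. Among the 17687 genes well above background on all arrays of a group, the shares were 8.7% higher and 8.83% lower. Most lists consist mainly of such genes, so a list share near these values is not raised. At 1577 of the 1606 higher and 1584 of the 1597 lower genes, the 3 Schmid arrays lay entirely on one side of the 3 wildtype arrays. The median difference over all genes was -0.09 on the log2 scale. Scaling moved the balance: 55.2% of called probes were higher, but 42.6% when arrays were scaled to the 75th percentile of the normexp values, a scaling that moved the median of all probes from -0.06 to -0.35. Without wildtype replicate 1 the counts were 3683 higher and 2692 lower, without wildtype replicate 2 they were 1420 and 1407, and without Schmid replicate 1 they were 1509 and 1502.

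The highest fold change among the named genes belonged to Fgf21, a secreted endocrine fibroblast growth factor. Its log2 signals were 16.17, 16.05 and 15.78 on the Schmid arrays and 9.60, 9.92 and 10.19 on the wildtype arrays, a 68.5-fold difference (log2 6.10 ± 0.27, SE, n = 3 and 3, adjusted p = 3.1e-06). Car6, the secreted carbonic anhydrase, read 16.81, 16.60 and 16.56 against 10.84, 10.63 and 10.83, and was 59.3-fold higher. In both genes the 3 Schmid arrays lay far above the 3 wildtype arrays. Absence of overlap was itself a condition for naming the 15 largest changes each way. Cdsn, an adhesion protein of cornified epithelium, was 30.9-fold higher (15.68, 15.42 and 15.32 against 10.23, 10.75 and 10.59). Ddit3, the stress transcription factor also called Chop, was 22.5-fold higher (16.23, 16.31 and 16.12 against 11.44, 12.03 and 11.72). Acox2, a peroxisomal oxidase of branched-chain fatty acids, stayed at background in all wildtype samples, so its change is given as at least 16.0-fold higher.

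Of the remaining 10 in that group of 15, several act in the ER or in stress-linked secretion. Derl3, which takes part in ER-associated degradation, was 19.3-fold higher, and Pdia4, a disulfide isomerase of the ER, was 16.0-fold higher. Inhbe, a subunit of activin E, was 14.1-fold higher. The rest were of mixed kinds. Lcn2, a siderophore-binding lipocalin, was 17.9-fold higher, but its wildtype signals were spread widely, with wildtype replicate 3 lowest at 8.41. Nnmt, which methylates nicotinamide, was 17.9-fold higher. Plet1, a membrane-anchored protein first known from placenta, was 17.8-fold higher. Tmem140, a membrane protein, was 16.0-fold higher, at 1 of its 2 probes. Tenm4, a teneurin, was 15.1-fold higher, at 2 of its 4 probes. Stbd1, which binds glycogen, was 13.9-fold higher, at 1 of its 3 probes. Flnc, an actin crosslinker, was 13.3-fold higher, at 1 of its 4 probes.

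Pla2g10, a secreted phospholipase A2, had the largest fall. It read 11.12, 11.41 and 11.16 on the Schmid arrays and 15.93, 16.10 and 15.96 on the wildtype arrays (fold change -27.2, log2 -4.77 ± 0.19, SE, n = 3 and 3, adjusted p = 1.3e-06). Il17d, an interleukin 17 family member, fell from 17.03, 17.26 and 17.11 to 13.21, 13.60 and 13.71 (fold change -12.4). Ihh, the Hedgehog ligand of prehypertrophic chondrocytes, fell from 16.49, 17.28 and 17.20 to 13.34, 13.59 and 13.38 (fold change -11.7, adjusted p = 0.00014). In these 3 genes the wildtype arrays stood high and close together, and the Schmid arrays stood well apart from them. Mgp, an inhibitor of mineralization, had a fold change of -10.4. Arsi, an arylsulfatase, had one of -10.9, and Plpp3, a lipid phosphate phosphatase, one of -10.5. The transporters Slc37a2, a sugar phosphate exchanger, and Slc9a2, a sodium-proton exchanger, had fold changes of -14.2 and -15.0. Nrgn, a calmodulin-binding protein of neurons, had a fold change of -16.5, and Grrp1 one of -15.6. Cd93, a receptor of endothelial and myeloid cells, had a fold change of -10.7. The globins Hbb-bt (-16.8) and Hba-a1 (-11.1) and the haem synthesis enzyme Alas2 (-10.9, not called against the Cog-background wildtype) fell as well, and near-identical globin copies may share signal on these probes. In RNA of a whole dissected zone, fewer cells of a type and less RNA per cell cannot be told apart. Olfr1312, annotated as an olfactory receptor, had a fold change of -11.0.

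**Figure D1:**
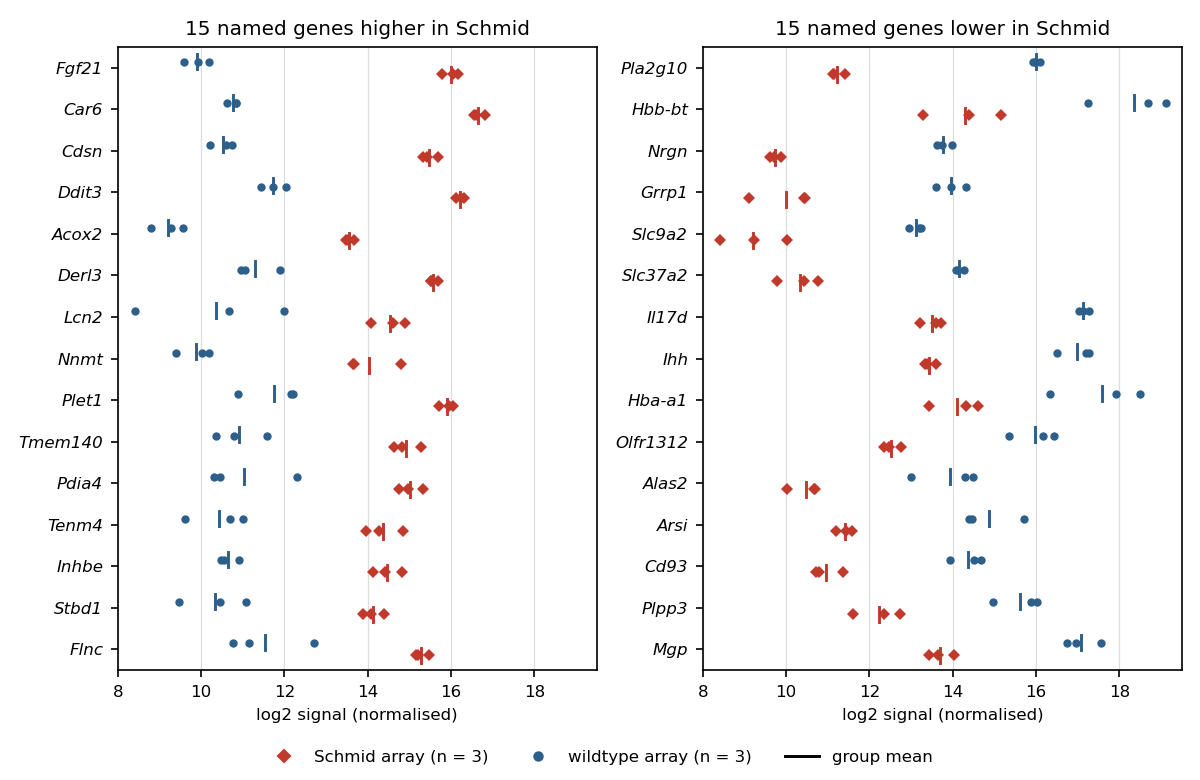
Normalised log2 signal on each array (x axis) of the 15 named genes with the largest rise (left) and the largest fall (right) in Schmid. Diamonds are the 3 Schmid arrays, circles the 3 wildtype arrays and vertical bars group means. The genes were chosen so that the 2 groups do not overlap in any row. Lcn2 has the widest spread among wildtype arrays, down to 8.41.

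Many targets of the unfolded protein response carry an ER stress response element in their promoter, read by Atf6 and Xbp1. The 250 bases before each RefSeq start site (build GRCm38.p6) were searched on both strands for ERSE, which is CCAAT and CCACG with 9 bases between them, and for ERSE-II, which is ATTGG and CCACG with 1 base between them. Of 15453 array genes with a promoter in the table, 23 held ERSE (0.149%) and 7 held ERSE-II. Of these 30 genes, 11 (36.7%) were called higher and 0 lower, beside 5.8% and 5.77% of all genes, and their median difference was 0.74 on the log2 scale, with 21 of 30 above 0. Among the 1041 called higher genes with a promoter, 8 held ERSE (0.768%), and among the 1039 called lower genes, 0 did. Between 10 and 13 of the 30 were called higher when any 1 array was left out, and 11 were against the wildtype of the Cog background, which is compared with the same Schmid arrays.

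The windows show the element in front of 10 of the 11 genes that were called higher, and these were selected by the motif. Each is read along its gene's strand, and capitals mark the element. Where it lies on the opposite strand, ERSE appears as CGTGG, 9 bases and ATTGG (Derl3, Ero1b and Creld2), and ERSE-II as CGTGG, 1 base and CCAAT (Rcl1).
Derl3, chr10:75893232-75893270, + strand: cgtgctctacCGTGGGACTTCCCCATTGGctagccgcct
Ero1b, chr13:12565672-12565710, + strand: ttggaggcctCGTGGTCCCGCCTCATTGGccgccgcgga
Creld2, chr15:88819510-88819548, + strand: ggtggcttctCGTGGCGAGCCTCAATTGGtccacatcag
Hspa5, chr2:34772015-34772053, + strand: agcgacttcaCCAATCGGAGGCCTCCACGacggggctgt
Dnajc3, chr14:118937817-118937855, + strand: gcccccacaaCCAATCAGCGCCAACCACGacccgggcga
Syvn1, chr19:6046522-6046560, + strand: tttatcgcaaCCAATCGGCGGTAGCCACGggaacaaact
Pdia6, chr12:17266481-17266519, + strand: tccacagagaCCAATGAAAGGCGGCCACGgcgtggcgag
Hsp90b1, chr10:86705628-86705666, - strand: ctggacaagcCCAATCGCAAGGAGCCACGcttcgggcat
Herpud1 (ERSE-II), chr8:94386367-94386397, + strand: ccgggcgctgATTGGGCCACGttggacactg
Rcl1 (ERSE-II), chr19:29101283-29101313, + strand: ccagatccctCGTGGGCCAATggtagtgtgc

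After Derl3, the largest changes of these genes were in Ero1b, an ER oxidase (8.48-fold), Creld2, an ER-resident stress protein (7.02-fold), Rcl1, a factor of ribosomal RNA processing (5.41-fold), Herpud1, of ER-associated degradation (4.27-fold), and Hspa5, the main Hsp70 of the ER (4.12-fold). Dnajc3 (3.79-fold), Syvn1 (2.84-fold), Pdia6 (2.71-fold) and Hsp90b1 (2.29-fold) followed. The remaining gene, Lgalsl (2.96-fold), was not called when any one of the Schmid arrays or wildtype replicate 2 or 3 was left out (adjusted p from 0.063 to 0.092). Not called were the ER lectins Calr (log2 0.84, under the 2-fold limit, adjusted p = 0.0014) and Canx (log2 0.47, adjusted p = 0.15), whose promoters hold the same element. These genes were named for the motif after their values were known.

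**Figure D2:**
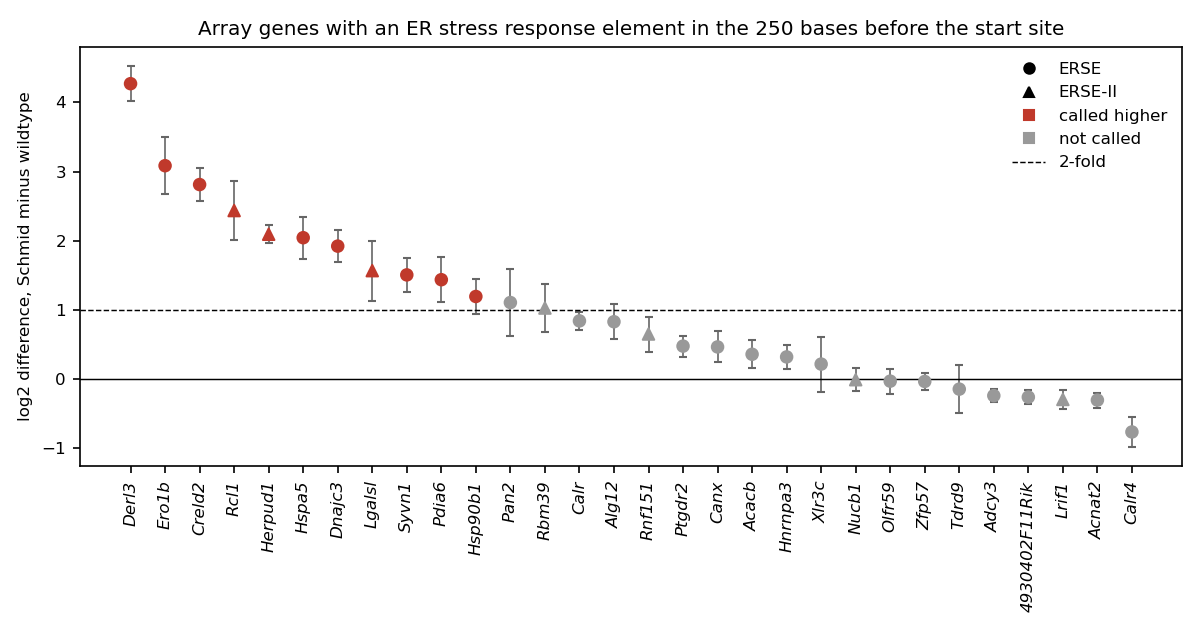
Log2 difference between Schmid and wildtype (y axis, ± SE of the fit, n = 3 and 3) of the 30 array genes with ERSE (circles) or ERSE-II (triangles) in the 250 bases before the start site. The 11 genes called higher (red) run from Derl3 at 4.27 down to Hsp90b1 at 1.20, and Calr4 is lowest at -0.76.

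Other motifs were less concentrated. Of the 15 named genes that rose, 14 had a promoter in the table. The amino acid response motif TGATGNAA, read by Atf4 and its partners, was found in 2 of them, beside 3.16% of all array genes and 3.65% of called higher genes. Those were Inhbe and Fgf21, whose windows are given. Both carry TTGCATCA on the opposite strand, and the search itself fixes every letter of it except the one at N.
Inhbe, chr10:127352002-127352049, - strand: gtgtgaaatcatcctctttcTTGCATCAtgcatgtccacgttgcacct
Fgf21, chr7:45615602-45615649, - strand: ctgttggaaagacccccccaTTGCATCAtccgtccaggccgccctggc

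The UPRE motif TGACGTGG stood in front of Flnc alone among the 15, and in 1.63% of called higher, 0.577% of called lower and 0.777% of all array genes. The E-box CACGTG was found for Derl3, Fgf21 and Car6, and in 11.8% of called higher, 8.18% of called lower and 8.30% of all array genes. The antioxidant motif TGACNNNGC was found in 13.4%, 13.8% and 12.9%, the heat shock motif in 0.576%, 0.192% and 0.485%, and the sterol motif TCACNCCAC in 1.34%, 1.15% and 1.25%, in the same order. The heat shock motif is GAA, TTC and GAA, or TTC, GAA and TTC, with 2 bases between blocks. These shares are descriptions of letters in a window, and CACGTG and the CCACG block of the ER elements can overlap.

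Genes that make amino acids and charge them to tRNA in the cytosol had the largest shares of higher members among the function lists. Of 23 amino acid synthesis genes, 10 were higher and 1 lower (median log2 0.83). Cth, which makes cysteine, was 10.2-fold higher (13.97, 13.57 and 13.59 against 11.32, 10.06 and 9.70, adjusted p = 0.002). Gpt2, a mitochondrial alanine aminotransferase, was 7.34-fold higher, and Psat1, of serine synthesis, 6.12-fold higher. Phgdh and Psph, the first and the last enzyme of the same serine route, were also called (log2 1.96 and 1.65). Glul, glutamine synthetase, went the other way (fold change -3.76), and it was not called without wildtype replicate 2 (adjusted p = 0.053) or against the Cog-background wildtype (adjusted p = 0.18).

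Of 20 cytosolic tRNA synthetases, 9 were higher and 0 lower (median log2 0.96), led by Eprs (3.51-fold), Iars (3.27-fold) and Hars (3.14-fold). The call of Hars was lost without Schmid replicate 1 or 3 or wildtype replicate 2, and against the Cog-background wildtype, where the list had 6 higher. Of 17 mitochondrial synthetases, 4 were higher and 1 lower, but 2 were higher without any one of Schmid replicate 1, wildtype replicate 2 or wildtype replicate 3. Nars2 was at least 2.69-fold higher, and Yars2 was 3.44-fold higher. One-carbon metabolism, which turns serine into folate-bound units, had 6 of 15 genes higher and 3 lower. The mitochondrial members Aldh1l2 (5.51-fold; 13.57, 13.59 and 13.52 against 11.70, 10.88 and 10.70) and Mthfd1l (4.25-fold) rose. The cytosolic counterpart of Aldh1l2, Aldh1l1 (-3.15), and the glycine cleavage enzyme Gldc (-4.30) fell. Against the Cog-background wildtype 1 of the 15 was lower, and Aldh1l1 was not called.

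Amino acid transporters were divided, with 6 of 31 higher and 5 lower. The cationic amino acid carrier Slc7a3 was 9.86-fold higher (16.14, 15.89 and 15.80 against 12.28, 12.80 and 12.84) and the glutamine carrier Slc38a1 6.06-fold higher, at 4 of its 6 probes, with 1 probe lower. The cystine carrier Slc7a11 was at least 4.36-fold higher. Slc43a2 (fold change -5.11), Slc38a7 (-3.76) and Slc7a8 (-3.37), carriers of neutral amino acids, fell. Without wildtype replicate 1 the lower count was 9, and with the processed signal it was 8.

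**Figure D3:**
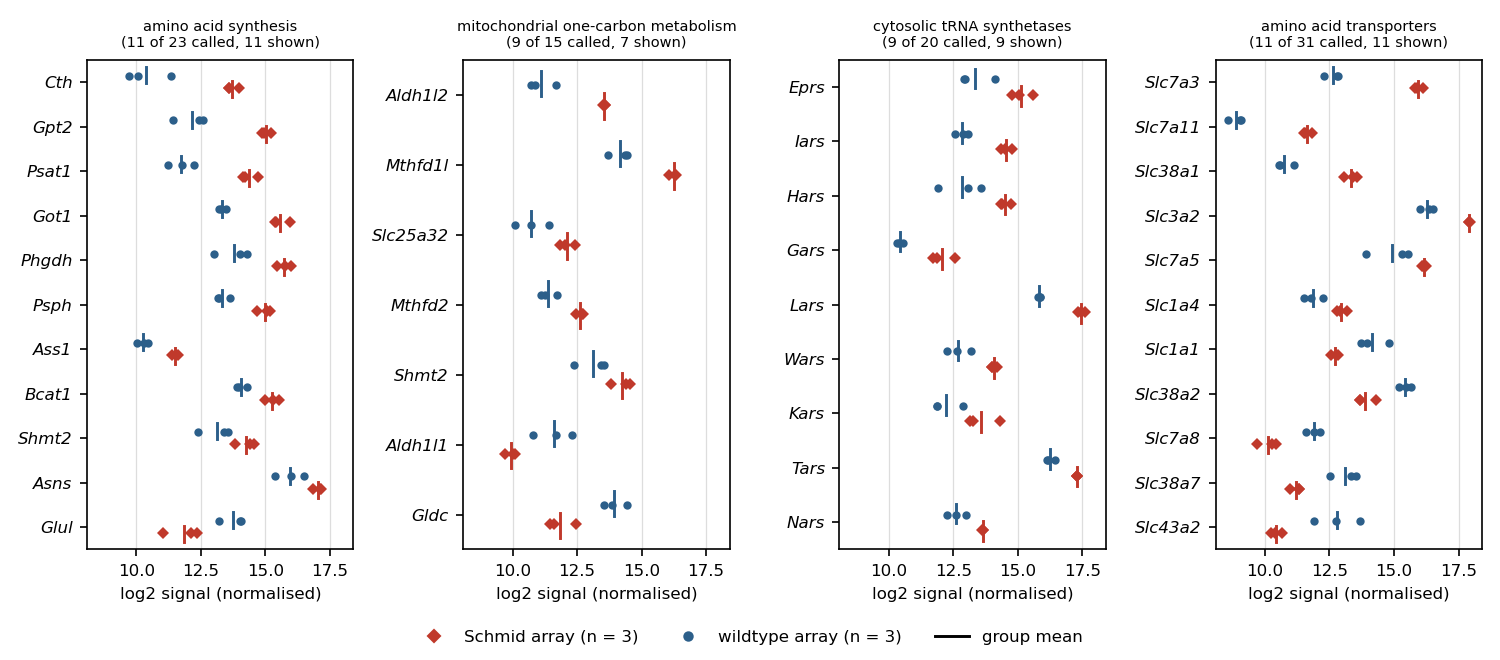
Normalised log2 signal per array (x axis) of called genes of 4 lists that concern amino acids, with the number called and the number shown above each panel. Diamonds are the 3 Schmid arrays, circles the 3 wildtype arrays and vertical bars group means. Genes that rose are at the top of each panel, as Cth with Schmid arrays between 13.57 and 13.97, and those that fell are at the bottom, as Slc43a2.

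Many genes of ribosome assembly rose, while none of the cytosolic ribosome's own proteins was called. Of 76 ribosome biogenesis genes, which process ribosomal RNA in the nucleolus, 30 (39.5%) were higher and 0 lower (median log2 0.82). Their median log2 signal was 12.32, 12.03 and 12.15 on the Schmid arrays and 11.42, 10.78 and 10.89 on the wildtype arrays, so the groups did not overlap. The helicase Ddx18 (7.58-fold; 13.39, 12.50 and 12.90 against 11.33, 9.32 and 9.39), Mak16 (6.49-fold) and Utp20 (5.42-fold) led, each well above background on 1 wildtype array. Leaving out 1 array gave 22 to 36 higher. Of 85 cytosolic ribosomal proteins 0 were called either way (median log2 -0.01), of which 42 lay above 0. Their signals lay near the top of the scale, with list medians of 17.93 to 18.13 on the 6 arrays. Of 77 mitochondrial ribosomal proteins, 3 were higher and 1 lower, and the higher count was 1 without Schmid replicate 2 or wildtype replicate 3, and 6 without wildtype replicate 1, with the row and GC trend removed or with the processed signal. Translation initiation factors had 9 of 45 higher and 0 lower, led by Eif2a (5.94-fold), Eif3a and Eif2b1 (both 3.52-fold). That count was 5 without wildtype replicate 2 or 3, 14 without wildtype replicate 1, and 5 against the Cog-background wildtype. The calls of Eif2a and Eif3a were lost without Schmid replicate 1 or without wildtype replicate 2 or 3, and Eif3a also without Schmid replicate 2 or 3. Neither Eif2b1 nor Eif3a was called against the Cog-background wildtype.

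Cytosolic and mitochondrial heat shock proteins had 12 of 38 higher and 0 lower. The small heat shock proteins Hspb8 (5.97-fold) and Hspb1 (5.04-fold; 15.47, 15.20 and 15.38 against 12.77, 12.98 and 13.29) and the inducible Hspa1a (4.97-fold) led. Against the Cog-background wildtype the list had 8 higher, and Hspb8 and Grpel1 were among those not called. The mitochondrial members Hspa9, Dnaja3, Lonp1, Hspd1, Clpx and Grpel1 were among the 12, with log2 differences from 2.28 (Hspa9) and 1.93 (Dnaja3) down to 1.23 (Grpel1). Chaperonin and prefoldin subunits, 16 genes that fold actin and tubulin, had 0 calls and a median of 0.50. Mitochondrial import genes had 8 of 32 higher and 0 lower, among them Timm8a1 (3.49-fold) and Timm9 (3.20-fold, a call lost without any one of Schmid replicates 1 and 3 and wildtype replicates 2 and 3). That count was 4 without Schmid replicate 1, 3 without wildtype replicate 2, 4 with the processed signal and 5 against the Cog-background wildtype. Of 81 respiratory chain genes 1 was higher and 1 lower, with a median of -0.42 and 61 of 81 below the wildtype. The lower count was 7 without wildtype replicate 1 and 12 with array weights. Proteasome subunits had 4 of 46 higher and 2 lower: Psmd8 (4.12-fold) and Psmd5 (2.72-fold) of the regulatory particle rose, and Psmb8 (-2.75) and Psmb10 (-2.88), catalytic subunits of the immunoproteasome, fell.

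The early secretory pathway had 17 of 66 genes higher and 1 lower (median log2 0.57). Arf4, a GTPase of the Golgi, was 5.37-fold higher (17.09, 16.27 and 16.45 against 15.32, 13.35 and 13.86), and Sec24a, which selects cargo for COPII vesicles, 4.28-fold higher at all 3 of its probes. Golgb1, a Golgi tether, had a larger change (6.74-fold), but its wildtype signals spread from 9.81 to 12.32, and it was not called without any one of Schmid replicates 2 and 3 or wildtype replicates 2 and 3. The count was 9 without Schmid replicate 1, 11 without Schmid replicate 3, and 7 and 8 without wildtype replicates 2 and 3. Rab GTPases had 8 of 59 higher and 2 lower, and 2 higher against the Cog-background wildtype or without wildtype replicate 2. Rab32, of lysosome-related organelles, was 3.57-fold higher. Lysosomal proteins had 1 of 46 higher and 3 lower, including the proteases Ctss (fold change -4.53) and Lgmn (-2.58).

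Oxidative stress defence had 8 of 38 genes higher and 1 lower. Mt2, a metal-binding metallothionein, was 9.06-fold higher (17.71, 18.67 and 18.67 against 15.61, 15.38 and 14.52), and Hmox1, which breaks down haem, 5.14-fold higher. Prdx2, a peroxiredoxin abundant in red cells, fell (fold change -2.71, at all 3 probes). Among energy genes, Hk2 (3.19-fold) and Pfkp (2.76-fold) of the first steps of glycolysis rose, in a list with 3 of 23 higher and 1 lower that had 7 higher without wildtype replicate 1 and 6 against the Cog-background wildtype. The fall was in Ldhb (-2.14). Tricarboxylic acid cycle genes had 3 of 25 higher and 1 lower, and 1 to 6 higher when 1 array was left out. Glycogen metabolism had 1 of 22 higher, Stbd1, and 0 lower. Sterol synthesis had 1 of 28 higher, the regulator Srebf1 (2.17-fold), and 3 lower, with the late enzymes Tm7sf2 (-4.71) and Dhcr7 (-4.06) falling, the latter not against the Cog-background wildtype. Fatty acid synthesis and lipid storage had 0 of 24 called.

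**Figure D4:**
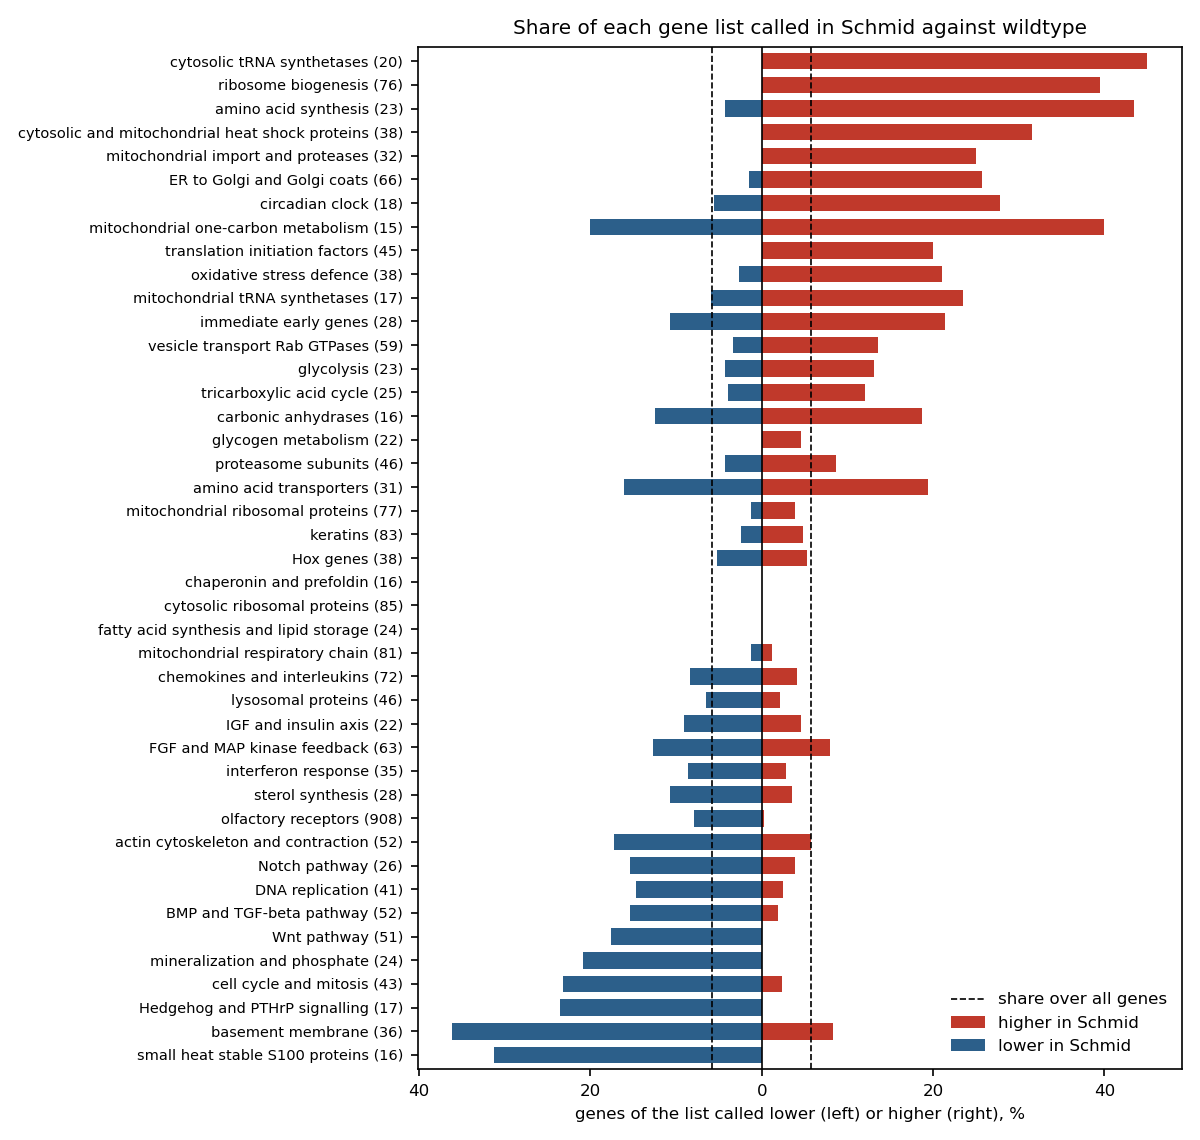
Share of each gene list called higher (right, red) or lower (left, blue) in Schmid, in percent of its genes on the array, whose number stands in brackets. Dashed lines mark the shares over all genes, 5.8% higher and 5.77% lower. Cytosolic tRNA synthetases and amino acid synthesis stand farthest to the right, and basement membrane farthest to the left.

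In 4 signalling lists of the growth plate most genes were not called, and more of the called members were lower than higher. Of 17 genes of Hedgehog and PTHrP signalling, 0 were higher and 4 lower: the ligand Ihh, Disp1, which releases the ligand (fold change -6.07; 9.95, 10.71 and 10.69 against 13.08, 12.84 and 13.24), the co-receptor Boc (-2.36) and the PTHrP receptor Pth1r (log2 -1.20). Boc was called neither against the Cog-background wildtype nor with the row and GC trend removed. Of 51 Wnt pathway genes, 0 were higher and 9 lower. The transcription factor Tcf7l2 had the largest fall (fold change -6.61; 12.97, 13.37 and 13.13 against 15.81, 16.04 and 15.80), at 3 of its 4 probes. The secreted antagonists Frzb (-3.98) and Sost (-3.36) and the receptor Fzd4 (-3.54) fell as well, so that the lower members included activating and inhibiting ones. The lower count was 15 with the processed signal, and Sost was not called against the Cog-background wildtype.

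BMP and TGF-beta genes had 1 of 52 higher and 8 lower, and 5 lower without Schmid replicate 1 or with a trend over array rows and probe GC content removed. Gdf15, a stress-induced ligand, was 9.33-fold higher (14.18, 13.68 and 13.55 against 10.64, 10.64 and 10.46). The ligand Tgfb3 fell (fold change -7.83; 12.57, 12.52 and 12.25 against 15.38, 15.49 and 15.37), as did Inhbb (-4.10) and the procollagen protease Bmp1 (-3.58). FGF genes and MAP kinase feedback had 5 of 63 higher and 8 lower. Apart from Fgf21, the higher ones were under 4-fold. Dusp6 (fold change -6.17) and Spry1 (-3.57), inhibitors that Fgf signals induce, and the receptor Fgfr4 (-4.05) fell. That list had 3 higher and 5 lower against the Cog-background wildtype, 3 and 4 without wildtype replicate 2, and 2 higher without Schmid replicate 1.

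Notch genes had 1 of 26 higher and 4 lower, with Dll3 (fold change -7.50) and the target Heyl (-3.23) falling and the DNA-binding protein Rbpj rising (2.92-fold). In the IGF and insulin axis, 1 of 22 genes was higher and 2 lower: Igfbp6, which binds IGF2, was 7.25-fold higher, and Ghr, the growth hormone receptor, fell (fold change -7.91; 10.26, 11.46 and 11.38 against 13.68, 14.33 and 14.03). Immediate early genes had 6 of 28 higher and 3 lower. Atf3 (7.82-fold) and Myc (7.64-fold; 12.95, 12.63 and 12.76 against 11.57, 9.06 and 8.91) rose, and Egr1 (-3.13), Egr2 (-2.64) and Ccn2 (-4.85) fell. Circadian clock genes had 5 of 18 higher and 1 lower, and 2 higher without wildtype replicate 3. The repressor Ciart was 7.52-fold higher and the activator Rora 4.43-fold higher, while the repressor Nr1d1 fell (fold change -3.80). The time of day of dissection is not in the labels, and its part was not tested.

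Cell cycle genes had 10 of 43 lower and 1 higher (median log2 -0.53). Mki67, present in dividing cells, had a fold change of -5.86 (10.89, 11.29 and 10.93 against 14.11, 13.85 and 12.80), Birc5, of the mitotic chromosome passenger complex, one of -5.82, and the kinetochore motor Cenpe one of -4.01. The cyclin Ccnd2 rose (2.58-fold at all 3 probes). Against the Cog-background wildtype 4 of the 43 were lower, and Cenpe was then not called (adjusted p = 0.074). DNA replication genes had 6 of 41 lower and 1 higher, and 3 lower without Schmid replicate 1, with the row and GC trend removed, or against the Cog-background wildtype. Ung, which removes uracil from DNA, rose (4.60-fold), and Tk1 (-3.99), Lig1 (-2.97) and Mcm5 (-2.60) fell, of which Tk1 and Mcm5 were not called against the Cog-background wildtype. Hypertrophic chondrocytes do not divide, and the vascular and marrow markers given below moved in the same direction, whose part in these values was not tested.

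Basement membrane and elastic fibre genes had 13 of 36 lower and 3 higher (median log2 -0.54), and 11 to 13 lower when 1 array was left out. Endothelial markers, with 8 of 12 lower, moved the same way, and their part was not tested. Col4a1 (fold change -6.11; 11.60, 11.13 and 11.08 against 14.10, 13.99 and 13.56) and Nid1 (-5.91) are core parts of the vessel and cell basement membrane, and Efemp2 (-4.66) serves elastic fibre assembly. Among the members that rose, the fibulins Fbln5 and Fbln2 were 4.71-fold higher, at 1 of 3 probes, and 3.98-fold higher. Of the 43 collagen chain genes, 13 were lower (30.2%) and 3 higher. Among them were Col22a1, of tissue junctions (fold change -6.32), and the cartilage chains Col9a3 (-3.06) and Col11a2 (-3.01), named after their values were seen.

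Mineralization and phosphate genes had 0 of 24 higher and 5 lower (median log2 -0.96), and up to 9 lower in other fits. After Mgp came Smpd3 (fold change -3.45), a sphingomyelinase needed for bone mineral, and Sost. S100 proteins had 5 of 16 lower and 0 higher, and 2 lower without wildtype replicate 2. S100b, a calcium sensor of chondrocytes, read 14.02, 16.90 and 16.48 against 18.04, 18.53 and 18.70, with Schmid replicate 1 lowest, and its call was lost without wildtype replicate 2 or 3. Actin and contraction genes had 9 of 52 lower and 3 higher, and 4 or 5 lower without Schmid replicate 1 or wildtype replicate 2 or 3. The smooth muscle proteins Myl9 (fold change -7.53) and Tagln (-5.46) fell, beside 3 of 10 lower pericyte and smooth muscle markers, of which Tagln is one, and Csrp1 (4.78-fold) rose beside Flnc.

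The labelled tissue was borne out as cartilage by its chondrocyte markers, and its zone was not tested by them. Chondrocyte matrix genes were among the brightest of the array, with list medians of 18.19 to 18.66. At the brightest probe 0 of 10 were called, and 1 was called lower at another probe. The brightest of the list, such as Col11a1 at 19.07 to 19.14, lie near the top of the scale. The share of saturated probes was 0 to 0.051% on the Schmid arrays and 0.0049 to 0.061% on their wildtype arrays. Whether differences shrink at such bright probes was not tested. Cartilage collagen chains outside this list were called lower: Col9a2 (fold change -2.25), Col9a3 (-3.06) and Col11a2 (-3.01), named after their values were seen. Of 11 hypertrophic chondrocyte markers 2 were lower, Ihh and Alpl (-2.16, a call lost without Schmid replicate 1 or wildtype replicate 2 or 3), and 0 higher, and 4 were lower against the Cog-background wildtype. Col10a1, the mutated gene, read 14.95, 13.99 and 13.69 on the Schmid and 15.79, 13.91 and 12.99 on the wildtype arrays, and the groups overlapped (fold change -1.01, adjusted p = 0.99). The knock-in changes a residue and not the probed transcript's presence, so this level does not check the genotype. Ibsp (-4.17, adjusted p = 0.063) and Mmp13 (-2.40, adjusted p = 0.37) were not called, with wildtype replicate 1 highest in both.

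Most called markers of cells next to the zone were lower. Of 12 endothelial markers 8 were lower and 1 higher (median log2 -1.60), with list medians of 10.17, 10.23 and 10.36 on the Schmid arrays and 12.13, 11.78 and 11.76 on the wildtype arrays. Robo4 (fold change -5.95), Egfl7 (-5.38) and Cldn5 (-5.03) led. The count was 8 against the Cog-background wildtype and 8 with each array left out. Vwf went up (2.20-fold), a call lost without Schmid replicate 2 or 3 or wildtype replicate 2 or 3, and against the Cog-background wildtype. Pericyte and smooth muscle markers had 3 of 10 lower, osteoblast markers 3 of 9, macrophage markers 3 of 10, B cell markers 3 of 8, osteoclast markers 2 of 10, fibroblast markers 2 of 10 and red blood cell markers 2 of 8, each with 0 higher. Among them were Mmp9 (-7.03) and Ocstamp (-5.20) of the osteoclast list and Serpinf1 (-5.94) of the osteoblast list. Cd34 (-7.36) and Thy1 (-6.62) were those of the fibroblast list, whose other 8 markers were not called. Membership in a list does not assign a gene to 1 cell type. The study itself lists Mmp9 among hypertrophic cartilage markers and reports it lower in Schmid. Of the 8 red blood cell markers, 3 were well above background on all arrays of a group. Their list medians overlapped, at 10.48, 9.88 and 9.23 on the Schmid and 12.13, 11.93 and 9.10 on the wildtype arrays. Against the Cog-background wildtype the B cell count was 0, and the macrophage and red blood cell counts were 1 each. The macrophage count was also 1 without any one of Schmid replicates 2 and 3 and wildtype replicate 2, and the B cell count was 1 without Schmid replicate 2 and 5 without wildtype replicate 3. Adipocyte and skeletal muscle markers had 0 of 8 called each, although the muscle list had the lowest median of all (-1.78), with list medians of 10.66 to 13.39 on Schmid and 13.24 to 14.06 on wildtype arrays. Neutrophil markers had 1 higher, Lcn2, and 1 lower of 10, and 6 lower without wildtype replicate 3. The part of these cell types in the lower counts of the other lists was not tested.

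**Figure D5:**
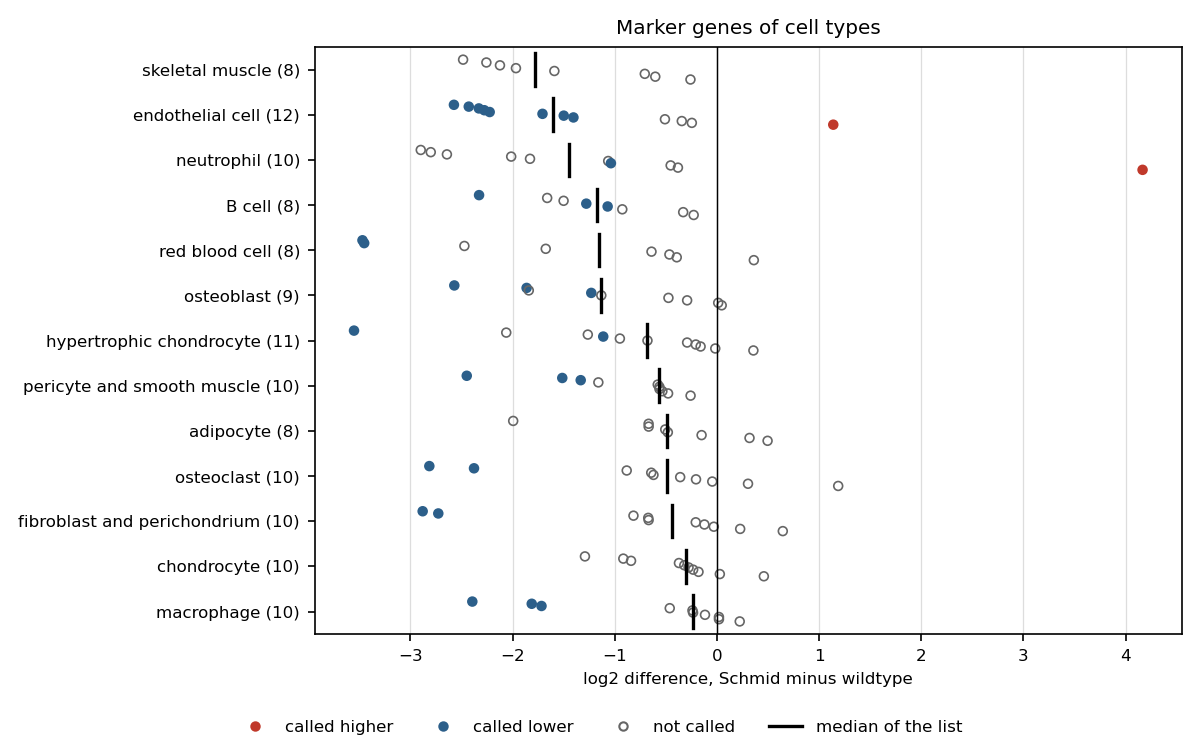
Log2 difference between Schmid and wildtype (x axis) of each marker gene, one row per cell type with the number of markers on the array. Filled circles are called genes (blue lower, red higher), open circles are not called, and black bars are list medians. The endothelial row has 8 filled blue circles, and only Lcn2 and Vwf are filled red.

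Carbonic anhydrases showed no common direction. Beside Car6, 2 of the 16 were called higher and 2 lower. Car9, a membrane enzyme induced by low oxygen, read 11.15, 11.28 and 10.90 against 9.81, 9.38 and 9.65 (2.82-fold), but not against the Cog-background wildtype (adjusted p = 0.064). Car5a was called (2.21-fold) although neither group was well above background, and its direction turned with the processed signal (log2 -0.10). The cytosolic enzymes Car3 (-7.64) and Car1 (-2.59) fell. Against the Cog-background wildtype, Car3 was not called (adjusted p = 0.097) and Car1 turned to higher (log2 0.34, adjusted p = 0.52). Car2, of osteoclasts and red cells, read 11.51, 10.38 and 10.09 against 14.96, 11.87 and 11.08, an overlap, and was not called (adjusted p = 0.12). The other 10 were not called either, with fold changes from -1.62 to 2.55.

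Of the 5 sex-linked genes 1 was called: Eif2s3y was 2.44-fold higher (15.54, 15.31 and 15.44 against 14.82, 13.74 and 13.88), a call lost without Schmid replicate 1 or wildtype replicate 2 or 3. Ddx3y, also on the Y chromosome, read 13.22 to 13.97 on all 6 arrays, and Xist 9.53 to 9.90.

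Immune and epithelial families showed scattered calls. Chemokines and interleukins had 3 of 72 higher and 6 lower, from 3 to 13 lower over the alternatives. Cxcl1 (3.45-fold), Il18 (2.79-fold) and Cx3cl1 (2.62-fold) rose, and Ccl3 was at least 3.41-fold lower. The interferon response list had 1 of 35 higher and 3 lower, with Ifitm3 (fold change -7.57) and Ifitm1 (-4.03) lower on every Schmid array than on any wildtype array. Keratins had 4 of 83 higher and 2 lower, with Krt19 7.63-fold higher (12.41, 12.80 and 12.42 against 9.43, 9.81 and 9.60). Hox genes had 2 of 38 called each way. Olfactory receptors, 908 genes that cartilage is not known to use, had 2 higher and 72 lower (7.93%), and 509 of them were marked as well above background on all arrays of a group. Their lower count was 37 with the row and GC trend removed, 25 against the Cog-background wildtype, 154 with the processed signal (and 30 higher), and 52 to 94 when 1 array was left out. Shares of a few percent lower in other lists are to be read beside that value.

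Among the 134 symbol families of at least 15 genes, those with the largest shares higher were Timm (33.3% of 15; import into mitochondria), Ints (26.7% of 15; the integrator complex that processes small nuclear RNA), Mettl (6 of 24; methyltransferases), Ddx (22.9% of 35; RNA helicases), Sec (22.2% of 27) and Eif (20.8% of 53). Timm, Ints, Ddx and Eif had 0 lower, Sec had 1 and Mettl had 3 (12.5%). Timm21 (4.42-fold), Ints2 (2.88-fold) and Ddx10 (3.58-fold), outside the rule for named genes, were called. Timm21 was not called against the Cog-background wildtype (adjusted p = 0.08). The largest shares lower were those of Col, then St (24.0% of 25; mostly sialyltransferases), Bcl (23.8% of 21), Ly (22.2% of 18; mostly lymphocyte surface proteins), Slco (3 of 15; organic anion carriers) and Mmp (19.0% of 21; matrix metalloproteinases). St8sia4, which builds polysialic acid, had a fold change of -7.64, Slco2b1 one of -5.79 and Mmp10 one of -4.85. These families are defined by shared letters of the symbol, and 33 of the 134 had no gene higher and 30 none lower.

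The nearest genes on either side of the 2-fold limit show how little separates a call from its absence. Mon2 at a fold change of 2.0010 and Tln1 at -2.0001 were called, while Ccdc120 at 1.9997 and Fam241a at -1.9999 were not, though all 4 had an adjusted p of 0.05 or less.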

How the data were processed

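Scanner files of 12 single-colour Agilent whole mouse genome arrays, as deposited, gave the mean and background intensity of each spot, extracted by the authors with Agilent Feature Extraction 9.5.3. The series table deposited by the authors holds log2 values of the same arrays and served as an alternative. Here, intensities were background-corrected with normexp (offset 50) and quantile normalized over 12 arrays. Control spots and outlier-flagged spots were left out (99.8% of spots were kept), and spots of a probe were averaged. Group means were fitted to all 12 arrays with limma 3.58.1 in R 4.3.3, Schmid was compared with its own wildtype, and p-values were adjusted by Benjamini-Hochberg over 41174 probes. The script was tested on simulated data. The number of arrays limits the precision. The study describes its wildtype mice as littermates, but the labels do not say which mice shared a litter.

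Of the probes, 32719 were named through RefSeq, 22951 of them by accession, and the array design's name was kept otherwise. A gene was read at its brightest probe (mean log2 signal over 12 arrays). Where no array of a group was well above background, a change is given as at least N-fold: the brighter group's mean against the dimmer group's mean of the higher of the dimmest measured signal on each array and the probe's own. Named genes were the 15 largest called changes each way with groups apart, well above background in the higher group and with a gene symbol, up to 3 called members each way per list, all members of the carbonic anhydrase, sex-linked and chondrocyte lists, Col10a1 and the genes next to the 2-fold limit. Other genes were chosen after their values were seen, and not every one is marked so where it is named. Some genes that the rule names are not reported here. The comparison, its gene lists and its motifs were chosen with earlier results of these data known. Alternatives covered background correction, scaling, the deposited table, a dim-probe filter, array weights, blocks, a trend over array rows and probe GC content, the other wildtype, a test against the 2-fold limit and leaving out each array. Promoter windows came from RefSeq (GRCm38.p6), while the array files use another build, whose coordinates are not printed.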

Additional observations from a re-analysis of the deposited data

How the results depend on the processing

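The higher and lower probe counts were 2380 and 1930. The lower count was 4029 with the processed signal set to the 75th percentile, 3984 with it quantile normalized and 3455 with normexp set to the 75th percentile, and of the called probes 42.5%, 42.0% and 42.6% were then higher. With the row and GC trend removed 1265 were lower (65.4% of calls higher), and against the wildtype of the Cog background 2270 were higher and 1390 lower (62.0% higher). A test against the 2-fold limit itself called 143 higher and 108 lower. Leaving out 1 array gave 1420 to 3683 higher and 1407 to 2692 lower, and 1149 higher and 1187 lower probes were called with each array left out. The cause of these shifts was not tested. Of 204 named genes that were called, 131 kept their call under the 19 settings other than the test against the 2-fold limit. Directions turned for Car1 (log2 0.34) against the Cog-background wildtype and for Car5a with the processed signal (-0.10 at the 75th percentile and -0.062 quantile normalized).

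The replicate numbers were not taken to pair the mice. Deviations of same-numbered Schmid and wildtype arrays correlated at 0.19, 0.17 and 0.07 over all probes (0.31, 0.28 and 0.12 over 12817 probes well above background on 12 arrays), and Schmid replicate 3 correlated more with wildtype replicate 2 (0.08). With the replicate number as a block, 2405 probes were higher and 2018 lower, and 13 respiratory chain genes were lower in place of 1. With the slide as a random block, 2788 were higher and 2136 lower. Dim signal limits genes such as Acox2, for which a bound is given.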
